A study of Mus musculus with 6 samples.

Results

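The 62 genes of the semaphorin, plexin, neuropilin, ephrin, Eph, Slit, Robo and netrin families that had a probe on the array were followed in oligodendrocyte precursor cells after knockdown of the chromatin remodeller gene Chd7. They were taken by symbol from the probe annotation of the array, among 19320 genes with a probe: 20 semaphorins, 11 plexins and neuropilins, 8 ephrins, 12 Eph receptors, 3 Slit genes, 4 Robo genes, and Ntn1, Dcc, Unc5b and Unc5c. Their 68 probes included 64 that passed the filter on dim signal, and 60 of the genes were tested, among 17390 genes in all. Epha6 and Sema3g did not pass, being above the detection limit on fewer than 3 arrays.

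Oligodendrocyte precursors from forebrains of Jcl:ICR mouse embryos at E15.5 were infected either with a Chd7 knockdown retrovirus (Chd7 KD, 3 samples) or with a control retrovirus (Control, 3 samples). Both groups were cultured with FGF2 and PDGF-AA and were harvested 3 days after infection, and the labels name neither a sort of infected cells nor the promoter of the virus. One array was used per sample, in a single colour. Whether the samples of a group were separate cultures is not given in the labels, and the p-values cover no more than the spread among these samples, part or all of which may be technical.

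These families carry the short-range and long-range cues that steer axons and migrating cells. Semaphorins signal through plexins, and most secreted class 3 semaphorins need a neuropilin as co-receptor. Ephrins are membrane-bound ligands of the Eph receptor tyrosine kinases and can also signal back into the cell that carries them. Slit proteins act through Robo receptors, and netrins attract through Dcc and repel through Unc5 receptors. In the developing brain such cues also direct the migration of oligodendrocyte precursors and act on the outgrowth of their processes.

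Chd7 itself read 8.54, 8.44 and 8.48 (log2 intensity) on the knockdown arrays, against 9.44, 9.20 and 9.47 on the control arrays. The difference was -0.88 on the log2 scale (adjusted p = 0.00112, SE 0.0859, limma), and on its other probe -0.48 (adjusted p = 0.00411 over all probes, SE 0.0676). Between 87.0% and 89.8% of probes lay above the detection limit on each array, and the number of arrays limits the precision. All 9 precursor markers with a probe, Pdgfra, Sox10 and Olig2 among them, were above the limit on all 6 arrays, and 5 of the 9 fell. Summed over these markers, the authors' processed intensity was 7060 to 8631 in the knockdown and 9788 to 11129 in the control. Markers of neurons, which also express many guidance genes, summed to 1242 to 1664 in the knockdown and 2098 to 2764 in the control. All such sums are of linear intensity, so the brightest markers weigh most. The brightest precursor marker was Olig1 (control mean 13.04 in log2 intensity, difference -0.24, adjusted p = 0.248, limma). The brightest neuronal marker was Gap43 (control mean 10.95, difference -0.84, adjusted p = 0.0276, limma). Of the 12 neuronal markers 5 fell (Dcx, Elavl3, Elavl4, Map2 and Gap43), none rose, and each was above the limit on all 6 arrays. Of all genes tested 5.16% fell and 4.49% rose in limma. With the replicate block described below, Tubb3 fell and Syt1 rose as well (adjusted p = 0.0330 and 0.0170), and the precursor markers Olig1 and Nkx2-2 fell (0.0371 and 0.0273). Under that block 14.8% of all genes passed. The sums overlapped between knockdown and control for astrocyte markers (10935 to 11515 and 10787 to 11818), oligodendrocyte markers (685 to 953 and 707 to 1021) and mural and fibroblast markers (94 to 136 and 94 to 131). They also overlapped for microglial markers (97 to 104 and 86 to 102), of which Tmem119 was detected on no array, and for endothelial markers (43 to 50 and 32 to 48), of which Tek and Cldn5 were detected on no array. Without the block 0 markers of these 5 cell types passed in limma (9.65% of all genes did), and 5 had an unadjusted p below 0.05 (24.6% of all genes). With it the oligodendrocyte markers Mog and Mobp rose (adjusted p = 0.0112 and 0.0118), and of the astrocyte markers Gja1 rose and Slc1a2 fell (0.00894 and 0.0163). The part of these shifts in the values below was not tested, and fewer cells of a type cannot be told apart from less RNA per cell.

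Few of the guidance genes passed the test between knockdown and control cells. At an adjusted p below 0.05 over all genes in limma, 3 of the 60 rose (Sema5a, Plxna1 and Sema3e), 1 fell (Sema3d) and 56 did not pass. This is 6.67% of the members, against 9.65% of all genes tested. The share of all genes was 4.49% for higher and 5.16% for lower. The groups of arrays did not overlap for 16 members, 10 higher and 6 lower, which is 26.7% of the members against 29.9% of all genes. At an unadjusted p below 0.05 there were 16 members, or 26.7%, against 24.6% of all genes. These shares lie near those of all genes, and no enrichment is read from them.

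On the log2 scale of the main values the members' differences were spread to both sides of 0. The log2 fold changes ran from -0.20 (Nrp2) to 0.36 (Sema5a), with 30 positive and 30 negative, and their median was -1e-04 against 8e-04 over all genes. The median size without sign was 0.0544 for the members and 0.0493 for all genes. Changes beyond 0.3 in size were read for 2 of the 60 members and for 1188 of all 17390 genes in the main values, and for 17 members and 4588 genes in the authors' processed values. For 49 of the 56 members that did not pass, the 95% interval of the difference stayed inside a 1.2-fold change in either direction on this scale. The scale compresses dim signals: the raw signal of 33 of the 60 members stayed below 1.5 times the blank spots on every array. Intervals on this scale therefore set no bound on the fold change of RNA for those 33 genes. Nor do they set a firm one for the other members, some of which also read larger in the authors' values. Unc5c, outside the 33, read -0.13 here and -0.34 there, and Nrp2 read -0.20 and -0.40. For Plxna1 the values were closer, at 0.35 and 0.39.

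**Figure D1:**
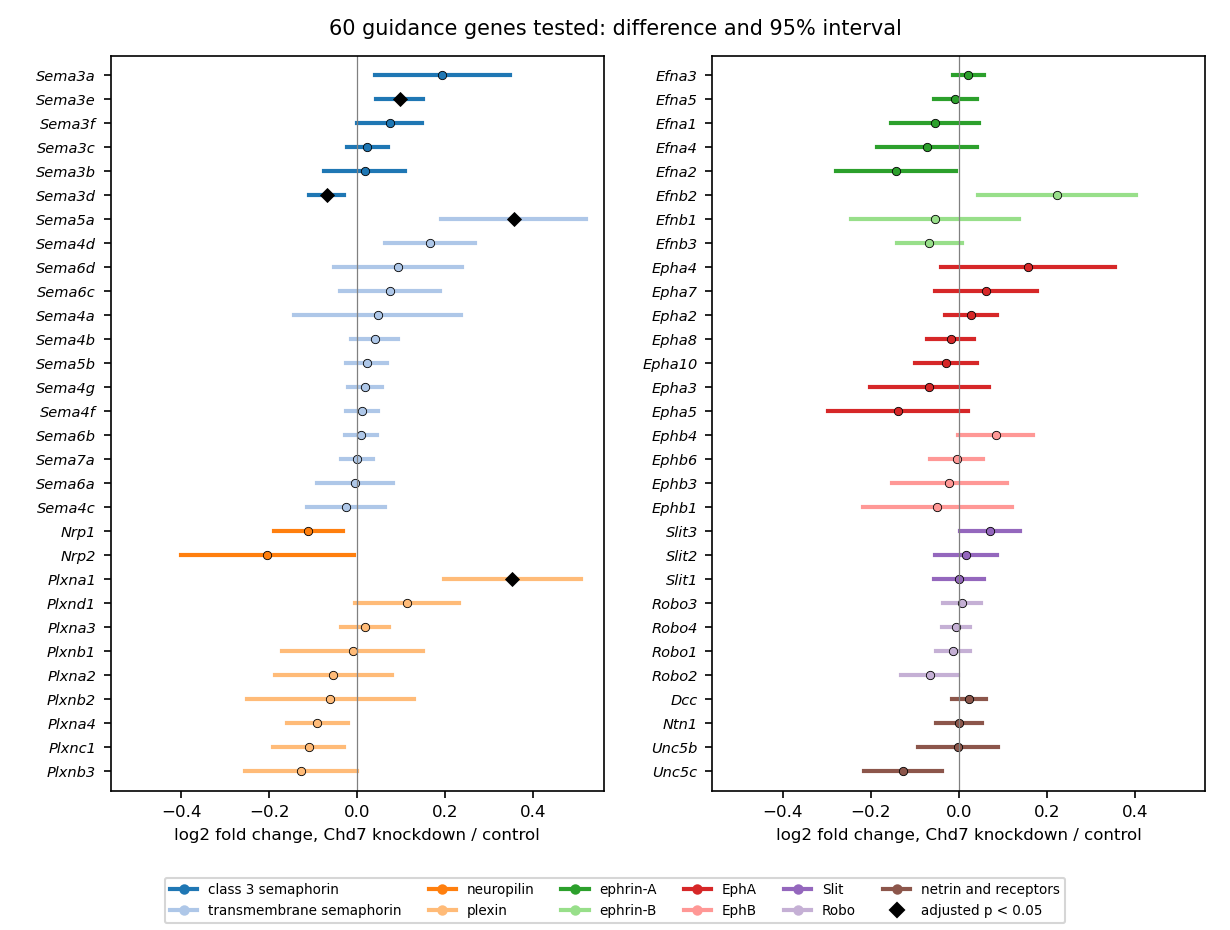
Log2 fold change of knockdown over control (points, x axis) with its 95% interval from limma (bars) for the 60 tested guidance genes, grouped by family and ordered within each family by value. Diamonds mark the 4 genes that passed, and most other points lie close to 0 on this scale, which compresses dim signals.

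The call depended on how the arrays were treated. Samples of the same number deviated together, and with this number as a block 10 members passed, 5 higher and 5 lower. This is 16.7% of the members, against 14.8% of all genes (7.39% higher and 7.45% lower). The 6 added were Sema4d and Efnb2, which were higher, and Nrp1, Nrp2, Plxnc1 and Efna2, which were lower. In the authors' processed values 0 members passed in limma, with 14 at an unadjusted p below 0.05, while 5.8% of all genes passed. Without control replicate 2, 0 members passed in limma and 15 had an unadjusted p below 0.05, while 5.49% of all genes passed. Without knockdown replicate 1 only Sema5a passed among the members, beside 4.31% of all genes. Without control replicate 3 only Sema5a and Plxna1 did, beside 6.1% of all genes.

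**Figure D2:**
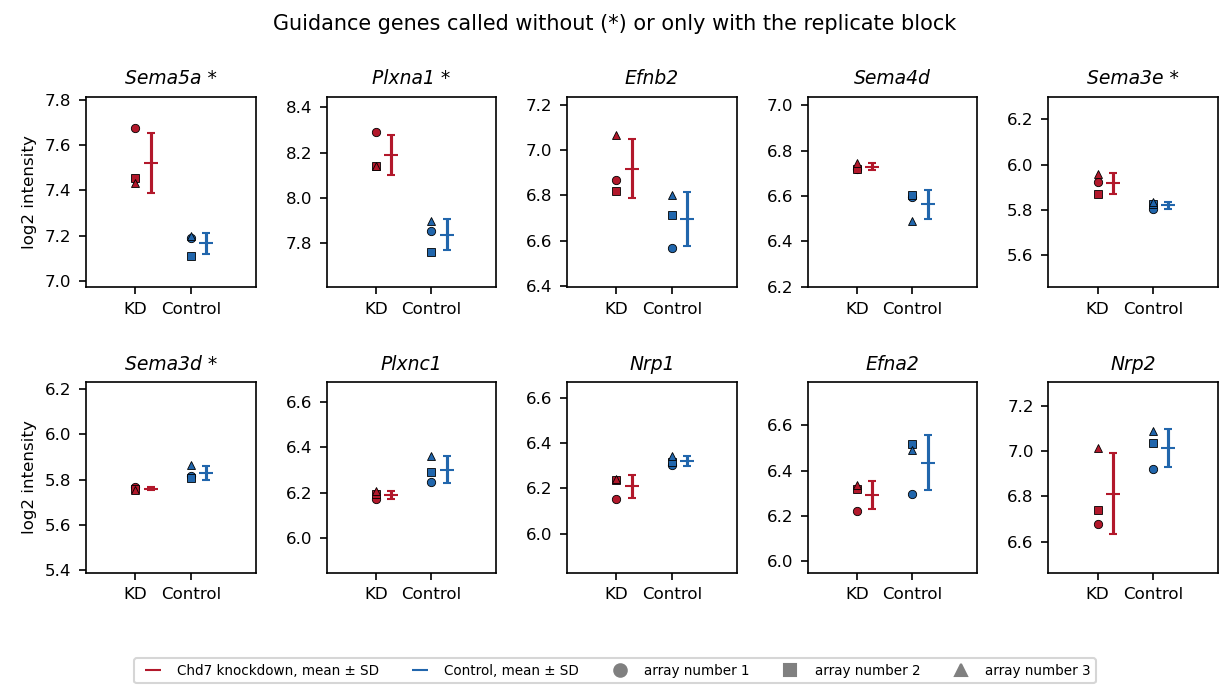
Log2 intensity on each array for the 10 guidance genes that passed with the replicate number as a block, with a star on the 4 that also passed without it. Red marks Chd7 KD and blue marks Control, marker shapes give the array number, bars show the mean ± SD (n = 3 each), and each panel spans the same height on the log2 scale, so that Sema5a and Plxna1 show the widest gaps.

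Among the 19 semaphorin genes tested, 2 rose, 1 fell and 16 did not pass, which is 15.8% called against 9.65% of all genes. Sema3e and Sema3d, 2 of these 3 calls, were dim and were lost in most alternatives. Positive values were read for 15 of the 19, against 8806 of all 17390 genes, with a median of 0.02 on the log2 scale. Sema5a, a transmembrane semaphorin with thrombospondin repeats that acts on retinal neurites in the mouse through plexins A1 and A3, changed most. It read 7.68, 7.45 and 7.43 (log2 intensity) on the knockdown arrays, against 7.19, 7.11 and 7.20 on the control arrays. The 3 knockdown arrays lay above the 3 control arrays, and knockdown replicate 1 stood highest. The means were 7.52 ± 0.134 in the knockdown and 7.17 ± 0.0470 in the control (SD, n = 3 each), which is 0.36 higher on the log2 scale or 1.28-fold (SE 0.0728, adjusted p = 0.0181 in limma). Within the sets of arrays with close scanner gain slopes, each with 2 arrays of one group and 1 of the other, the difference was 0.30 and 0.36. In the authors' values it was 1.40-fold (adjusted p = 0.0769). Without control replicate 2 the adjusted p was 0.0686.

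Sema3e, a secreted semaphorin that binds plexin D1 without a neuropilin, was dim. It read 5.92, 5.87 and 5.96 on the knockdown arrays, against 5.80, 5.82 and 5.84 on the control arrays, with no overlap. The log2 fold change was 0.10 (SE 0.0239, adjusted p = 0.0369), while the raw signal was only 1.06 to 1.17 times the blank spots. In the authors' processed values, which are rounded, Sema3e stood at 7, 5 and 8 in the knockdown, against 3, 4 and 4 in the control, a 1.80-fold difference that did not pass (adjusted p = 0.0761). The call held in 1 of the 6 fits that left out an array (adjusted p up to 0.118).

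Sema3d, another secreted class 3 semaphorin, was the only member that fell, and it was tested only because its control arrays were above the detection limit. Its log2 intensity was 5.77, 5.76 and 5.76 in the knockdown, against 5.82, 5.81 and 5.86 in the control, and the groups did not overlap. The difference was -0.07 (SE 0.0179, adjusted p = 0.0419). The probe was above the limit on 1 of 3 knockdown arrays and on 3 of 3 control arrays, so that it was not tested where all 6 arrays had to be above the limit, and the authors' values were 2, 1 and 1 in the knockdown, against 3, 3 and 4 in the control. In 0 of the 6 fits without an array did it pass (adjusted p up to 0.118), nor did it with median scaling (0.127), without the variance trend (0.148) or in the authors' values (0.0638).

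The windows from 250 bases before to 50 bases after the start of these 3 semaphorin genes are shown because they are the called members with an entry in the promoter table (RefSeq, GRCm38.p6, plus strand). Capitals mark the GC box GGGCGG, or CCGCCC on the other strand, and the SOX-type letters ACAANG, or CNTTGT on the other strand. The windows lie at chr15:32244563-32244862 for Sema5a, chr5:14025026-14025325 for Sema3e and chr5:12382916-12383215 for Sema3d.
Sema5a: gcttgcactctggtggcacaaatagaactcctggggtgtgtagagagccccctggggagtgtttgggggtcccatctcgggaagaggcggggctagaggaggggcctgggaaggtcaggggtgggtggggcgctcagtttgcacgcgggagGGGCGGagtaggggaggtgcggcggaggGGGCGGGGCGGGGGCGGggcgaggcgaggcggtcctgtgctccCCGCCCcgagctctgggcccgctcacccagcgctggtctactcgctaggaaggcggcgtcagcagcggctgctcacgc
Sema3e: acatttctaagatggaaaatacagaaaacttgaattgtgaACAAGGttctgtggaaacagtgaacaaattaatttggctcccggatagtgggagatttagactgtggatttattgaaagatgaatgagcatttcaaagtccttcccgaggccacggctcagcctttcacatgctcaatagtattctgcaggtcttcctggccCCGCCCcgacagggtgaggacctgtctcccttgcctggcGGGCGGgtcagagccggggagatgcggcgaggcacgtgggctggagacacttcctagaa
Sema3d: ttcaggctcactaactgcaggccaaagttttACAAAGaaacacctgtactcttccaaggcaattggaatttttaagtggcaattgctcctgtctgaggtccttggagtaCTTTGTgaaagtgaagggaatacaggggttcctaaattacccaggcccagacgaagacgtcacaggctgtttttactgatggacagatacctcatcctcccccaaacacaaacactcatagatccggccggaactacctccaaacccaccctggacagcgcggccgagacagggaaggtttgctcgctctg

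The Sema5a window held 5 GC boxes, some of which overlap one another, no SOX-type match and 23 CpG dinucleotides at 71.3% G and C. The Sema3e window held 2 GC boxes, 1 SOX-type match and 11 CpG at 50.7%, and the Sema3d window no GC box, 2 SOX-type matches and 8 CpG at 49.7%. A GC box was found in 70.1% of the 67 windows of the 51 tested members found in the table and in 35.7% of all 32851 windows of this length. The SOX-type letters were found in 35.8% of the member windows and 41.2% of all, and the median of all windows was 7 CpG. The E-box letters CANNTG, present in 49.3% of the member windows and 72.3% of all, occurred 0, 2 and 3 times in Sema5a, Sema3e and Sema3d. The letters TGATGNAA, the type of element bound by Atf4, or TTNCATCA on the other strand, occurred in none of the 3, nor in any of the 67 member windows, against 3.97% of all windows. These are matches of letters and not measured binding.

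Sema3a and Sema3f came closest among the class 3 members that did not pass. Sema3a, a repellent that binds Nrp1, read 7.61, 7.66 and 7.69 on the knockdown arrays, against 7.56, 7.33 and 7.48 on the control arrays, without overlap (log2 fold change 0.19, adjusted p = 0.115). Sema3f, whose receptor is Nrp2, read 6.39, 6.36 and 6.36 in the knockdown, against 6.30, 6.32 and 6.26 in the control (0.07, adjusted p = 0.203). The 2 remaining tested genes of the class, Sema3b and Sema3c, both read 0.02. Sema3d, Sema3a, Sema3e and Sema3c all lie on chromosome 5 in RefSeq, and their differences were thus of both signs.

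Sema4d, a membrane semaphorin and ligand of plexin B1 that has been linked to oligodendrocyte differentiation in the mouse, did not pass without the block. It read 6.72, 6.72 and 6.75 on the knockdown arrays, against 6.60, 6.60 and 6.49 on the control arrays, with no overlap. The log2 fold change was 0.16 (SE 0.0454, adjusted p = 0.0534), and the adjusted p was 0.0426 under the replicate block. Another Sema4d probe was above the detection limit on 1 array and was not tested. Sema4b had 5.97, 5.97 and 5.94 in the knockdown, against 5.88, 5.95 and 5.93 in the control (0.04, adjusted p = 0.351). The other 10 membrane semaphorins tested ranged from -0.025 (Sema4c) to 0.09 (Sema6d), with adjusted p between 0.411 and 0.993.

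Of the 11 plexins and neuropilins, 1 rose, none fell and 10 did not pass, which is 9.09% called against 9.65% of all genes. With the replicate block 1 rose and 3 fell, which is 36.4% against 14.8% of all genes. An unadjusted p below 0.05 was read for 6 of the 11 in limma without the block, against 24.6% of all genes. No enrichment of this family was tested. Negative values were read for 8 of the 11, against 8584 of all 17390 genes. Plxna1, which joins neuropilins in the receptor for class 3 semaphorins and is one of the plexins named above for Sema5a, read 8.29, 8.14 and 8.14 on the knockdown arrays, against 7.85, 7.76 and 7.90 on the control arrays. All 3 knockdown arrays lay above all 3 control arrays, again with knockdown replicate 1 highest. The means were 8.19 ± 0.0880 in the knockdown and 7.84 ± 0.0700 in the control (SD, n = 3 each), which is 0.35 higher on the log2 scale or 1.28-fold (SE 0.0691, adjusted p = 0.0153 in limma). Within the sets with close gain slopes it was 0.33 and 0.32, and the authors' values gave 1.31-fold (adjusted p = 0.0784). Plxna1 did not pass without control replicate 2 (adjusted p = 0.0605), knockdown replicate 1 (0.0570) or both arrays numbered 1 (0.0641).

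The other Plxna1 probe did not move with it. That probe read 6.48, 6.45 and 6.33 in the knockdown, against 6.36, 6.43 and 6.40 in the control, a difference of 0.02 with an SE of 0.0462 (adjusted p = 0.850 over all probes). The rise of Plxna1 thus rests on 1 of its 2 probes. Among the other genes with a pair of tested probes, Plxna2 read -0.05 on the chosen probe and -0.12 on the other, Plxnb2 -0.06 and 0.02, and Epha5 -0.14 and -0.15, and none of these probes passed over all probes.

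**Figure D3:**
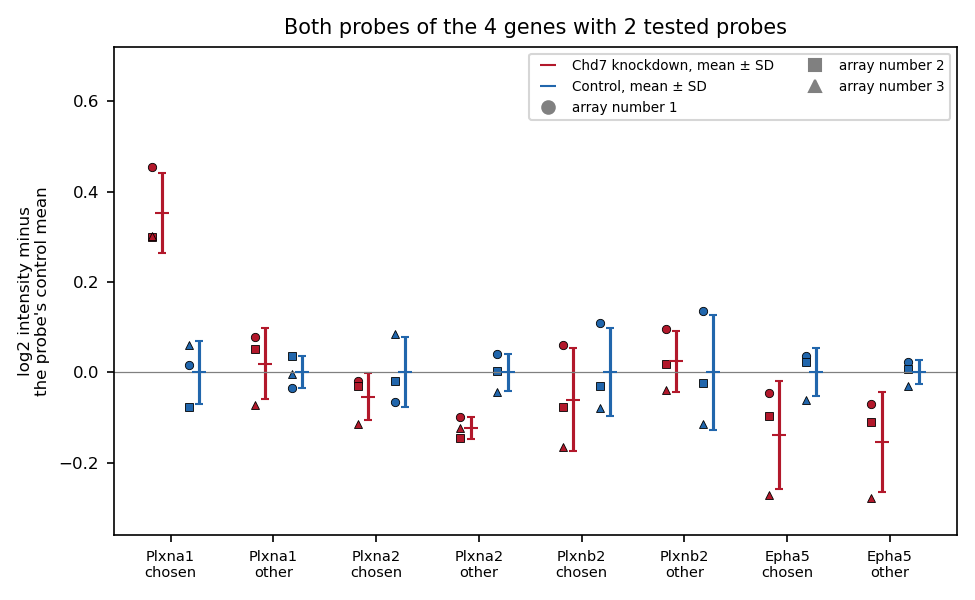
Log2 intensity on each array minus the mean of the 3 control arrays, for the chosen probe and the other probe of the 4 guidance genes with 2 tested probes. Red marks Chd7 KD and blue marks Control, bars are the mean ± SD (n = 3 each), and Plxna1 is separated between the groups on the chosen probe and not on the other.

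Both neuropilins, the co-receptors of class 3 semaphorins, had negative values. Nrp1, the co-receptor for Sema3a, read 6.15, 6.24 and 6.24 on the knockdown arrays, against 6.30, 6.32 and 6.35 on the control arrays, with no overlap (log2 fold change -0.11, adjusted p = 0.0789, and 0.0489 with the replicate block). Nrp2, the co-receptor for Sema3f, read 6.68, 6.74 and 7.01 in the knockdown, against 6.92, 7.03 and 7.09 in the control. Here knockdown replicate 3 lay among the control arrays (-0.20, adjusted p = 0.188, and 0.0381 with the block). Without knockdown replicate 3 the Nrp2 difference was -0.31 (adjusted p = 0.0386). Nrp2 passed in only 1 of the 6 fits without an array, with differences from -0.31 to -0.14 (adjusted p up to 0.451, limma).

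Plxnc1, the receptor for Sema7a, read 6.17, 6.19 and 6.21 on the knockdown arrays, against 6.25, 6.29 and 6.36 on the control arrays, with no overlap (-0.11, adjusted p = 0.0905, and 0.0488 with the block). Plxna4, a receptor for class 3 and class 6 semaphorins, read 6.27, 6.26 and 6.22 in the knockdown, against 6.34, 6.32 and 6.36 in the control (-0.09, adjusted p = 0.101). The values of Plxna2, Plxna3, Plxnb1, Plxnb2, Plxnb3 and Plxnd1 ranged from -0.13 (Plxnb3) to 0.11 (Plxnd1, the receptor of Sema3e), and none passed.

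Of the 8 ephrin genes, 0 passed in limma without the block, where 9.65% of all genes did. An unadjusted p below 0.05 was read for 2 of them, against 24.6% of all genes. With the block 1 rose and 1 fell, which is 25% against 14.8% of all genes. Negative values were read for 6 of the 8, against 8584 of all 17390 genes. Efnb2, a transmembrane ephrin that binds Ephb4 and Epha4, read 6.87, 6.82 and 7.06 on the knockdown arrays, against 6.57, 6.71 and 6.80 on the control arrays. The groups were just apart, and the difference of 0.22 had an adjusted p of 0.120, which was 0.0209 under the replicate block. Efnb3, a transmembrane ephrin of the midline, read 6.01, 6.02 and 5.98 in the knockdown, against 6.04, 6.03 and 6.14 in the control (-0.07, adjusted p = 0.250).

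Among the ephrins anchored by a lipid, Efna2 read 6.22, 6.32 and 6.34 on the knockdown arrays, against 6.30, 6.52 and 6.49 on the control arrays. The arrays numbered 1 were the lowest of each group, and control replicate 1 lay among the knockdown arrays (-0.14, adjusted p = 0.180, and 0.0334 with the block). Without control replicate 1 the Efna2 difference was -0.21 (adjusted p = 0.0253). Efna2 passed in only 1 of the 6 fits without an array, with differences from -0.21 to -0.10 (adjusted p up to 0.421, limma). Efna4 read 6.45, 6.61 and 6.53 in the knockdown, against 6.63, 6.63 and 6.55 in the control (-0.07, adjusted p = 0.429). Efna1, Efna3, Efna5 and Efnb1 ranged from -0.05 to 0.02.

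Of the 11 Eph receptors tested, 0 passed in limma with or without the replicate block, and 0 had an unadjusted p below 0.05. Over all genes these shares were 9.65% without the block, 14.8% with it and 24.6% at an unadjusted p below 0.05. Epha5, an EphA receptor of the forebrain, read 7.47, 7.42 and 7.25 on the knockdown arrays, against 7.55, 7.54 and 7.46 on the control arrays (log2 fold change -0.14, adjusted p = 0.268). Epha4, which binds ephrins of both classes, read 7.18, 6.99 and 6.85 in the knockdown, against 6.97, 6.75 and 6.83 in the control, with overlap (0.16, adjusted p = 0.319). The interval of the Epha4 difference ran from -0.04 to 0.35. Ephb4, the receptor for Efnb2, read 6.47, 6.41 and 6.47 in the knockdown, against 6.39, 6.32 and 6.40 in the control (0.08, adjusted p = 0.211).

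Ephb1, which steers retinal axons at the chiasm, read 6.95, 6.83 and 6.63 in the knockdown, against 6.84, 6.84 and 6.87 in the control (-0.05, adjusted p = 0.743). The spread of its knockdown arrays, with replicate 1 highest and replicate 3 lowest, was wider than the difference between the groups. The 7 remaining Eph receptors, Epha2, Epha3, Epha7, Epha8, Epha10, Ephb3 and Ephb6, ranged from -0.07 (Epha3) to 0.06 (Epha7). Epha1 and Ephb2 were not analysed here.

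Of the 11 genes of the Slit, Robo and netrin systems, 0 passed in limma with or without the replicate block, and 3 had an unadjusted p below 0.05 (Slit3, Robo2 and Unc5c), beside the same shares of all genes. Unc5c, a receptor for repulsion by netrin, read 6.37, 6.40 and 6.36 on the knockdown arrays, against 6.57, 6.48 and 6.47 on the control arrays, with no overlap (log2 fold change -0.13, SE 0.0389, adjusted p = 0.0754). Dcc, the netrin receptor for attraction, lay near the blank spots at 5.80, 5.79 and 5.81 in the knockdown, against 5.75, 5.80 and 5.79 in the control (0.02, adjusted p = 0.464). Ntn1, the ligand of both, read 2e-04, and Unc5b -0.0022.

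Slit3, a secreted ligand of Robo receptors, read 6.25, 6.25 and 6.28 on the knockdown arrays, against 6.15, 6.21 and 6.21 on the control arrays, with no overlap (0.07, adjusted p = 0.191). Robo2, one of the receptors of neurons for Slit, read 5.95, 6.01 and 6.04 in the knockdown, against 6.07, 6.03 and 6.09 in the control (-0.07, adjusted p = 0.189). Slit2 read 5.97, 6.01 and 5.94 in the knockdown, against 5.90, 6.02 and 5.96 in the control (0.02, adjusted p = 0.808). The groups were apart for Slit3 and overlapped for Robo2 and Slit2.

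Robo1, another Slit receptor, read 5.74, 5.73 and 5.78 in the knockdown, against 5.77, 5.75 and 5.77 in the control (-0.01, adjusted p = 0.671). It was above the detection limit on 1 knockdown array and 2 control arrays. Slit1, Robo3 and Robo4 read 5e-04, 0.0078 and -0.0059.

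By role, 21 of the 31 tested ligand genes (semaphorins, ephrins, Slits and Ntn1) had positive values, with a median of 0.02, and 9 of the 29 tested receptor genes did, with a median of -0.02. Over all genes 8806 of 17390 were positive. Among the ligands 2 rose and 1 fell, and among the receptors 1 rose and none fell. This is 9.68% of the ligands and 3.45% of the receptors, against 9.65% of all genes. No difference between ligands and receptors was tested.

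Some dim members read differently on the authors' scale. From the values, about the mean of the blank spots was subtracted there before scaling. Robo4 stayed near 0 on both scales. Ntn1 (2e-04 and -0.0877), Robo3 (0.0078 and -0.0196) and Sema3b (0.0171 and -0.0518) differed in sign between the main and the authors' log2 fold changes. The fold changes of Dcc (1.65-fold) and Sema3e (1.80-fold) were larger on the authors' scale. Neither passed on that scale (adjusted p = 0.346 and 0.0761). For Plxna1 both scales gave closer values, at 1.28-fold in the main values and 1.31-fold in the authors' values.

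**Figure D4:**
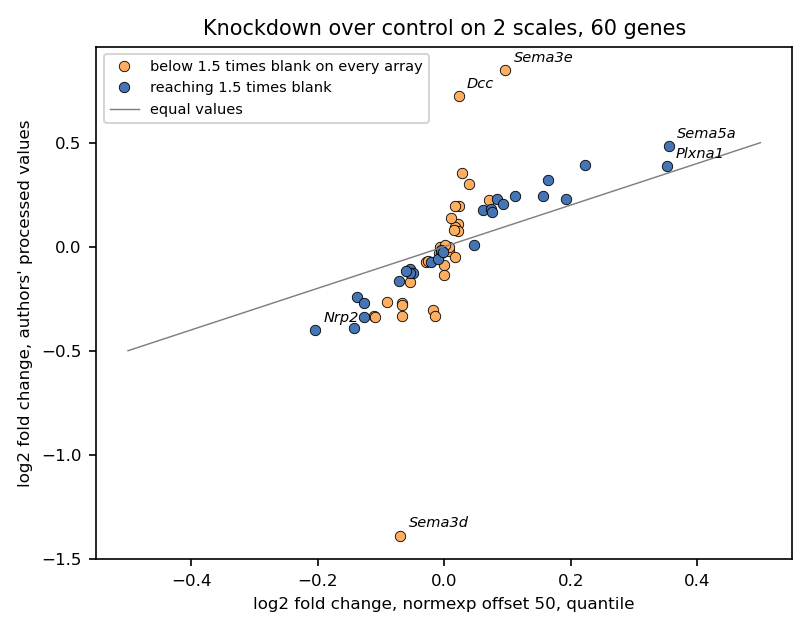
Log2 fold change of knockdown over control in the main values (x axis) and in the authors' processed values (y axis) for the 60 tested guidance genes. Orange points stayed below 1.5 times the blank spots on every array and some of them lie far from the line of equal values, such as Sema3d at -1.39 and Sema3e at 0.85 on the authors' scale, while others, such as Robo4, and Plxna1 lie near it.

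Lists of other guidance molecules and of the cytoplasmic machinery below guidance receptors were read beside the members. Of 38 other guidance ligands and receptors tested, 2 rose, 3 fell and 33 did not pass, which is 13.2% against 9.65% of all genes. The list's median was -0.01. This list and the signalling list below were chosen with earlier results of these data known, so no enrichment is read from their shares. For the same reason the size of their largest changes is not compared with that of the members. Ntn4, a laminin-related netrin, read 7.12, 7.07 and 7.17 on the knockdown arrays, against 6.84, 6.85 and 6.71 on the control arrays (log2 fold change 0.32, adjusted p = 0.00977). Vldlr, a receptor for reelin, rose by 0.69, and Dab1, the adaptor that binds the tails of reelin receptors, fell by 0.24 (adjusted p = 0.00732 and 0.0113).

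Omg, a myelin-associated ligand of the Nogo receptor, read 8.55, 8.53 and 8.57 on the knockdown arrays, against 8.85, 8.91 and 9.07 on the control arrays (-0.40, adjusted p = 0.0123). Unc5a, a netrin receptor outside the set of members, read 5.89, 5.93 and 5.97 in the knockdown, against 6.03, 6.06 and 6.13 in the control (-0.14, adjusted p = 0.0236). The groups of arrays did not overlap for either gene. With the replicate block Ntng1, a lipid-anchored netrin, also passed (0.10, adjusted p = 0.0337, against 0.0714 without the block).

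Of 40 signalling and cytoskeleton genes tested, 3 rose, 4 fell and 33 did not pass, with a median of -0.0077. The share called was 17.5% against 9.65% of all genes, and no enrichment is read from it, for the reason given above. Dpysl3 read 8.79, 9.07 and 9.43 on the knockdown arrays, against 10.67, 10.28 and 10.75 on the control arrays. It fell the most of the list (-1.47, adjusted p = 0.0019) and Crmp1 fell as well (-0.52, adjusted p = 0.00124), and both are of the collapsin response mediator family that acts below semaphorin receptors. Crmp1 read 6.25, 6.40 and 6.43 in the knockdown, against 6.89, 6.87 and 6.88 in the control, so that the 3 control arrays were nearly equal and all above the knockdown. The other members of that family did not pass: Dpysl2 read -0.05, Dpysl4 0.01 and Dpysl5 -0.07 (adjusted p = 0.254, 0.952 and 0.412).

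Mical1, an oxidoreductase that takes actin filaments apart below plexins, read 6.32, 6.32 and 6.32 on the knockdown arrays, against 6.88, 6.62 and 6.73 on the control arrays (-0.42, adjusted p = 0.00449). Gsk3b, a kinase that phosphorylates collapsin response mediators, fell by 0.40 (adjusted p = 0.00777). The genes that rose were Sipa1l1, which acts on the GTPase Rap (0.26, adjusted p = 0.0411), Limk1, the kinase that inactivates cofilin (0.23, adjusted p = 0.0476), and Vav3 (0.15, adjusted p = 0.0262). With the replicate block Ngef, an exchange factor that binds EphA receptors, also passed (-0.15, adjusted p = 0.0488, against 0.0520 without the block). Dpysl3 and Crmp1 are also expressed by young neurons, whose markers fell in sum as given above, and the part of that shift was not tested.

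**Figure D5:**
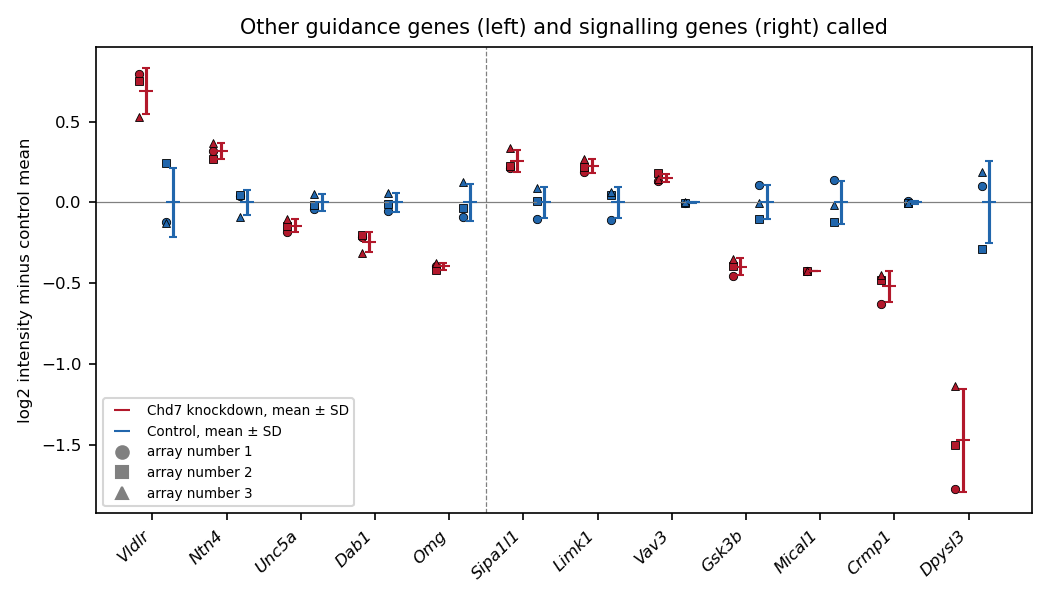
Log2 intensity on each array minus the control mean for the 12 genes that passed in the lists of other guidance genes (left of the dashed line) and of signalling and cytoskeleton genes (right). Red marks Chd7 KD and blue marks Control, bars are the mean ± SD (n = 3 each), and the 3 knockdown arrays of Dpysl3, read at 8.79 to 9.43 before the control mean was taken off, lie farthest below their controls.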

How the data were processed

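Total RNA was amplified, labelled with Cy5 and hybridised to TORAY arrays, per the labels' protocols. Per the file headers, the deposited intensity is the median spot signal at 635 nm, joined from scans at 3 gains, with no background subtracted and no scaling between arrays. The authors' processed intensities come without a stated method. From the values, they are the signal less about the blank mean, scaled to a median of 25 and rounded, and 11290 empty values were set to 1 before log2.

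Spot signals went through normexp (offset 50, local background not used), were quantile-normalised and put on the log2 scale (R 4.3.3, limma 3.58.1). A probe was tested if its signal exceeded the blank mean by 2 SD on at least 3 of 6 arrays, and each gene was represented by its probe of highest mean. Of the 23473 probes on the array, 1 marked bad was left out. Groups were compared with limma (lmFit, eBayes with a trend), with Benjamini-Hochberg adjustment over 17390 genes, in a script tested on simulated data. Sets of arrays with close gain slopes were formed from the slopes themselves. They were knockdown 2 with controls 1 and 2 (0.464 to 0.467), and knockdown 1 and 3 with control 3 (0.478 to 0.479).

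Deviations from the group means correlated within each replicate number (0.36, 0.38 and 0.23). Among the 3 arrays of the other group, all 6 arrays correlated best with the one of their own number. The numbers were therefore used as a block in an alternative fit, and the main fit had no block. Pairing by number is inferred from the data and not stated in the labels. Named genes were those that passed, and up to 2 with the smallest p among the others of each family group. The members and lists were chosen with earlier results of these data known. Symbols of all 68 probes matched RefSeq through Entrez identifiers. Alternatives covered the background correction, offset, scaling, filter, variance trend, values, probe choice, gain set, replicate block and single arrays.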

Additional observations from a re-analysis of the deposited data

How the results depend on the processing

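Members higher in the knockdown (3) numbered 5 with the replicate block, 0 in the authors' values, 0 and 0 within the gain sets, and 1 without both arrays numbered 1, an alternative chosen after seeing the data. Leaving out single arrays gave 0 to 3. Members lower (1) numbered 5 with the replicate block, and 0 with median scaling, with the filter at all 6 arrays, without the variance trend, in the authors' values, within either gain set and without both arrays numbered 1. Leaving out single arrays gave 0 to 1, and the member lower was then Nrp2 or Efna2, never Sema3d. The members' median was -0.0223 in the authors' values, and -0.0034 to 0.007 without single arrays. Genes called in the other guidance and signalling lists (12) numbered 0 within either gain set, 7 without both arrays numbered 1, and 7 to 11 without single arrays. All genes called (1678) numbered 2580 with the replicate block, 1009 in the authors' values, 39 within either gain set, 800 without both arrays numbered 1, and 750 to 1451 without single arrays. Chd7 read -0.88 and -0.95 within the gain sets and did not pass there (adjusted p = 0.103 and 0.0603, limma), where each fit holds 3 arrays and the lone array of a group is assumed to vary like the other group. The replicate block changed no call of a named member beyond the 6 given above. Sema4d also passed with cyclic loess (adjusted p = 0.0430) and without the variance trend (0.0445). Sema3e did not pass with median scaling (0.0632), without the trend (0.108) or with the gain set as a block (0.0634). No result named here changed sign with a call. Apart from what the number of arrays shows, the causes were not tested, and dim signal limits 33 of the 60 members most.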
